A study of Homo sapiens with 12 samples.

Results

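The genes described here are 10 actin crosslinkers and focal adhesion adaptors, VCL, ZYX, TLN1, FLNA, ACTN1, TNS1, PALLD, FERMT2, FHL2 and SYNPO2, found by their symbols among the 60612 genes of the deposited expression table. All 10 were present and all 10 passed the filter on low counts, so each is among the 21328 genes tested. They were measured in 12 libraries of polyadenylated RNA from LX2, a wild-type, immortalised line of human hepatic stellate cells, the liver cells that turn into matrix-producing myofibroblasts in fibrosis. Per the labels, all cells were kept in 10% serum and, 24 h after seeding, deprived of serum for 16 h. The control group (4 libraries) was left untreated, the TGFb group (4 libraries) received TGFb at 5 ng/ml for 16 h, and the STINGX with TGFb group (4 libraries) was first exposed for 3 h to 10 µM of STINGX, a compound known by its code name, and then to TGFb as above. No library had STINGX without TGFb, so a change with STINGX is always a change on top of TGFb. LX2 is a single line, and nothing in the labels ties the libraries of a group to separate cultures, so a p-value reflects library-to-library spread that could be technical.

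Focal adhesions are the plaques at which integrins, the receptors for extracellular matrix, are tied to bundles of actin. Talin and kindlin bind the integrin tails, vinculin and tensin strengthen the link to actin, filamin, alpha-actinin, palladin and synaptopodin-2 crosslink or bundle the filaments, and LIM-domain proteins such as zyxin and FHL2 gather at sites under tension. Stellate cells build prominent adhesions and stress fibres as they become myofibroblasts, and several genes of this machinery are classical targets of serum response factor (SRF), which binds the CArG box and is driven by the actin-sensing cofactors MRTF.

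Library totals lay between 54035320 and 70787741 counts. Of 7 stellate and mesenchymal markers 5 reached at least 1 CPM (counts scaled to a common library total, with TMM library sizes), while DES and LRAT, a marker of quiescent stellate cells, had no count in any library. The hepatocyte markers ALB and TTR were also at 0 in every library. SERPINA1, of the same list, had a mean of 8.48 CPM in control, 5.44 with TGFb and 3.74 with STINGX and TGFb. Of 5 endothelial markers, PECAM1 and CDH5 reached 1 CPM in the control mean, at 1.86 and 1.87 CPM. PECAM1 was at 2.03 CPM with TGFb and 0.647 with STINGX and TGFb, and CDH5 at 0.264 and 0.25 CPM. The summed CPM of 5 macrophage and leukocyte markers, most of it CD68, was 71.7 to 79.1 in control, 23.9 to 28.9 with TGFb and 71.2 to 87.1 with STINGX and TGFb, and the pan-leukocyte gene PTPRC was at 0 in the TGFb libraries. Within that list CD14 differed from CD68, with a mean of 15.7 CPM in control, 2.42 with TGFb and 2.30 with STINGX and TGFb. Of 4 cholangiocyte and epithelial markers only KRT7 reached 1 CPM in a group mean, at 14.8 CPM in control, 29.4 with TGFb and 9.79 with STINGX and TGFb. Summed smooth muscle markers were 130 to 177 CPM in control libraries, 175 to 230.4 CPM under TGFb and 165 to 193 CPM under STINGX with TGFb. The part of these markers in the results on the adhesion genes was not tested, and in bulk RNA fewer cells of a type and less RNA per cell cannot be told apart.

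Because the genes belong to a machinery known for SRF control, their promoters were searched for the CArG box on both strands. RefSeq (build GRCh38.p14) gave 24 windows, each reaching from 250 bases before to 50 bases after a start site, for the 10 genes. A CArG box was present in 1.3% of all 34943 RefSeq promoter windows and in 5 of the 24, which belonged to FLNA, ACTN1 and FHL2 and held 4 different sites, since 2 of the FHL2 windows overlap. A form with a single G or C in the middle was in 6.95% of all windows and in 3 of the 24, CCTTGTATGG in ZYX, CCTTTAGTGG in SYNPO2 (110 to 101 bases before the start) and CCAGAAATGG in TNS1, which lies after the start. The 30-base stretches are shown in the direction of the gene, with the box in capitals.
FLNA, chrX:154374709-154374738, minus strand, 94 to 85 bases before the start: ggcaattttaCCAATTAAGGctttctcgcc
ACTN1, chr14:68977718-68977747, minus strand, 171 to 162 bases before an alternative start: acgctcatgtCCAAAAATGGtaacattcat
FHL2, chr2:105399091-105399120, minus strand, 59 to 50 bases before a start: gcgtgcatctCCTTATATGGtcaaatgaca
FHL2, chr2:105438595-105438624, minus strand, 85 to 76 bases before a further start: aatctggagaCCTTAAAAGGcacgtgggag
ZYX, chr7:143381229-143381258, plus strand, 106 to 97 bases before the start: ccgggccgctCCTTGTATGGtctgggcgcc
The last base of the ZYX box is also the first base of GTCTG, which reads CAGAC on the other strand. CAGAC, a core bound by SMAD proteins, was in 13 of the 24 windows against 45.3% of all windows, and GGAATG, the core bound by TEAD factors, was in 7 of the 24 against 14%. These matches describe letters in the windows and were not tied to binding.

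The 10 genes covered a wide range of levels. On the FPKM scale (fragments scaled by transcript length and by library depth), which allows genes of different length to be set side by side, FLNA led in control cells at 226 ± 7.53 (SD, n = 4), followed by ZYX at 93.0 ± 2.21, ACTN1 at 75.5 ± 1.45, TLN1 at 53.3 ± 3.50 and VCL at 22.8 ± 0.597. FHL2 at 11.3 ± 0.791 and FERMT2 at 10.4 ± 1.70 had overlapping ranges, and so did PALLD at 5.38 ± 1.75 and TNS1 at 5.33 ± 0.202. SYNPO2 was lowest at 0.256 ± 0.0561 FPKM. With TGFb, ACTN1 at 108 ± 4.47 FPKM and ZYX at 102 ± 3.19 FPKM overlapped, and TNS1 stood at 19.0 ± 0.370 FPKM, within the range of VCL and above FERMT2, FHL2 and PALLD. VCL was at 24.8, 25.1 and 26.7 FPKM in TGFb replicates 1 to 3, and only replicate 4, at 15.4 FPKM, lay below TNS1. With STINGX and TGFb, TNS1 lay at 8.58 ± 0.196 FPKM, again below FHL2 at 12.6 ± 0.717 FPKM, and only FERMT2 and FHL2 overlapped among neighbours in the order.

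**Figure D1:**
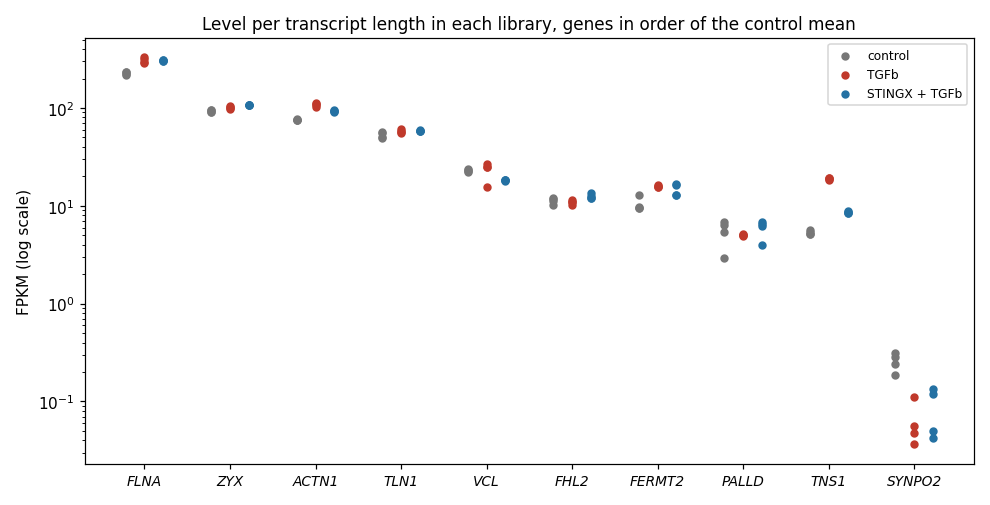
FPKM (log axis) of the 10 genes in each of the 12 libraries, with genes in order of the control mean; points are libraries, grey for control, red for TGFb and blue for STINGX with TGFb. FLNA is highest and SYNPO2 lowest in every group. TNS1 moves from the level of PALLD in control to within the range of VCL with TGFb, above VCL only in TGFb replicate 4.

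TGFb raised 6 of the 10 genes and lowered 1. The integrin linkers TNS1, FERMT2 and TLN1, the crosslinkers FLNA and ACTN1 and the LIM protein ZYX rose, from 3.72-fold for TNS1 to 1.14-fold for TLN1 and ZYX. SYNPO2 fell, a call that was lost (adjusted p = 0.11) when the single-exon transcript described with that gene was left out. VCL, PALLD and FHL2 did not pass the test. Over all genes tested, edgeR's quasi-likelihood test with Benjamini-Hochberg adjustment called 26.0% at an adjusted p under 0.05, 13.2% higher and 12.8% lower. The median log2 change of the 10 genes was 0.19, against -0.004 over all genes. For the same 6 genes all 4 TGFb libraries lay above all 4 controls, and for SYNPO2 all lay below, where 13.9% and 13.1% of all genes tested had such ranges (27.1% together).

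With STINGX before TGFb, 5 of the 10 genes were lower than with TGFb alone and none was higher. TNS1 fell most, to 0.410 of its TGFb level, followed by VCL, ACTN1, FLNA and TLN1, whose falls were to between 0.723 and 0.919 of it. The background was 27.5% of genes called, 13.8% lower and 13.7% higher, and the median log2 change of the 10 was -0.13 against 0.006 over all genes. Scaling mattered here. With library size alone in place of TMM, the median of all genes moved to 0.15 and the share of higher genes among those called from 50% to 72.6%, and of the 10 genes 2 were then lower (TNS1 and ACTN1) and 1 higher (FHL2). All 4 libraries with STINGX lay below all 4 with TGFb for ZYX, TLN1, FLNA, ACTN1, TNS1 and FERMT2, a pattern shown by 15.7% of all genes tested (31.6% in either direction).

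Against control, STINGX with TGFb left 5 genes higher (ZYX, FLNA, ACTN1, TNS1 and FERMT2) and 2 lower (VCL and SYNPO2), with 34.2% of all genes called, 17.2% higher and 17.0% lower. The median log2 change of the 10 was 0.098. Ranges did not overlap for ZYX, FLNA, ACTN1 and TNS1 (higher) and VCL and SYNPO2 (lower), where 34.5% of all genes tested had ranges apart. The 3 comparisons share libraries pairwise, so their values are set side by side and are not independent of each other.

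**Figure D2:**
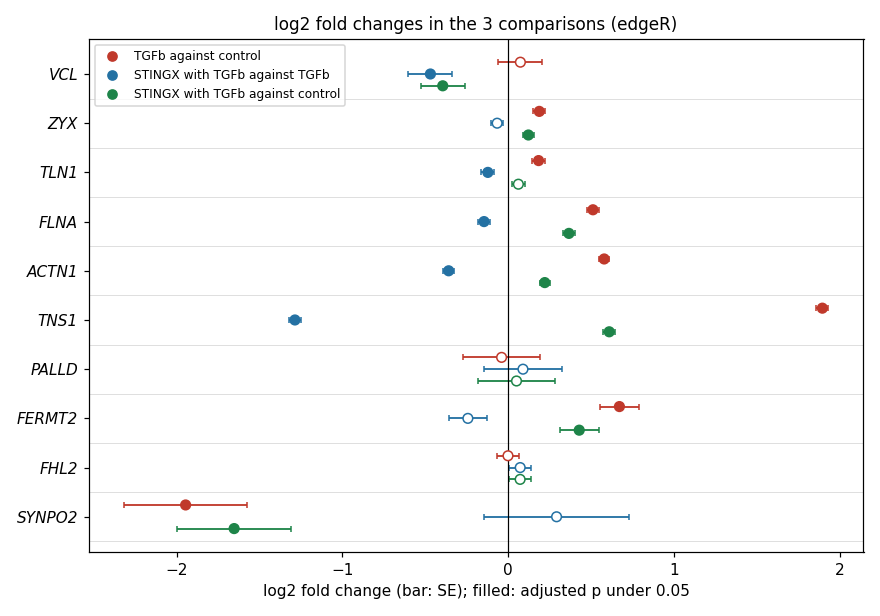
Log2 fold change (bar: SE) of each gene in TGFb against control (red), STINGX with TGFb against TGFb (blue) and STINGX with TGFb against control (green), from edgeR with TMM scaling; filled points have an adjusted p under 0.05. TNS1 has the largest rise with TGFb, 1.90, and the largest fall with STINGX against TGFb, -1.29; the blue values of ZYX and TLN1 change sign with library size alone, to 0.07 and 0.02.

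TNS1 (ENSG00000079308, chr2:217799588-218033982, minus strand in the deposited table) encodes tensin-1, which joins integrin tails to actin in mature, fibrillar adhesions. Its level was 103, 103, 107 and 102 CPM in control replicates 1 to 4. With TGFb it was 394, 395, 372 and 380.4 CPM, and with STINGX and TGFb 155, 164, 158 and 156 CPM. The 3 groups did not overlap, and the highest SD was 11 CPM. The rise with TGFb was 1.90 ± 0.04 on the log2 scale (SE, edgeR adjusted p = 1.4e-12), the fall with STINGX was -1.29 ± 0.04 (adjusted p = 5.6e-11), and STINGX with TGFb lay above control by 0.61 ± 0.04 (adjusted p = 4.3e-08). All 3 calls held in each of the 12 other settings and with any 1 library left out.

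FERMT2 (ENSG00000073712, chr14:52857268-52952435, minus strand) encodes kindlin-2, which activates integrins together with talin. Control libraries stood at 133, 97.2, 95.9 and 94.2 CPM, TGFb libraries at 167, 164, 168 and 169 CPM, and libraries with STINGX and TGFb at 161, 126, 122 and 156 CPM. The TGFb libraries were tight, while control replicate 1 stood apart from its group and the STINGX libraries formed a high and a low pair. FERMT2 rose with TGFb by 0.67 ± 0.12 on the log2 scale (edgeR adjusted p = 0.0011), and STINGX with TGFb lay above control by 0.43 ± 0.12 (adjusted p = 0.014), with ranges that overlapped through control replicate 1. Against TGFb alone the difference was -0.24 ± 0.12 (95% interval -0.50 to 0.01, adjusted p = 0.15). Without control replicate 1, which takes part in the shared estimate of spread, that last value was -0.24 with an adjusted p of 0.046.

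TLN1 (ENSG00000137076, chr9:35696948-35732195, minus strand) encodes talin-1, the adaptor that binds integrin beta tails and recruits vinculin when stretched. It measured 594, 612, 648 and 656 CPM in control, 713, 689, 739 and 711 CPM with TGFb, and 659, 676, 641 and 644 CPM with STINGX and TGFb. The TGFb libraries were above all others, and the control and STINGX libraries overlapped. The rise with TGFb was 0.18 ± 0.04 on the log2 scale (edgeR adjusted p = 0.0033, but 0.072 with library size alone). The fall with STINGX was -0.12 ± 0.04 (adjusted p = 0.033), and it became 0.02 (adjusted p = 0.80) with library size alone. It also lost its call without TGFb replicates 1, 3 or 4 or STINGX with TGFb replicates 1, 3 or 4, left out in turn (adjusted p from 0.062 to 0.095). Against control, STINGX with TGFb differed by 0.06 ± 0.04 (adjusted p = 0.24).

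VCL (ENSG00000035403, chr10:73995193-74120169, plus strand) encodes vinculin, which is recruited to stretched talin and binds actin. Controls were at 269, 273, 269 and 277 CPM, TGFb libraries at 312, 314, 329 and 191 CPM, and libraries with STINGX and TGFb at 209.5, 205, 206 and 207 CPM. TGFb replicates 1 to 3 were above all controls, and TGFb replicate 4 was below every other library of the series for this gene. With all libraries the change with TGFb was 0.07 ± 0.13 on the log2 scale (95% interval -0.22 to 0.37, edgeR adjusted p = 0.74), and without TGFb replicate 4 it was 0.23 (adjusted p = 0.00053). STINGX with TGFb was lower than TGFb by -0.47 ± 0.13 (adjusted p = 0.021) and lower than control by -0.39 ± 0.13 (adjusted p = 0.039), the latter with no overlap between 4 libraries and 4. Each of these 2 calls was lost in 6 of the 12 other settings, library size alone among them (adjusted p = 0.081 and 0.084). The call against TGFb was also lost without TGFb replicates 1, 2 or 3 or STINGX with TGFb replicate 2 (adjusted p from 0.051 to 0.063), and without TGFb replicate 4 it was -0.62 (adjusted p = 1.4e-07). The call against control was lost without any 1 of the control or STINGX libraries (adjusted p from 0.068 to 0.081).

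FLNA (ENSG00000196924, chrX:154348524-154374638, minus strand) encodes filamin A, which crosslinks actin into networks and binds integrin tails. It had 2793, 2903, 2899 and 2899 CPM in control, 3973, 3881, 4337 and 4204 CPM with TGFb, and 3771, 3772, 3631 and 3652 CPM with STINGX and TGFb. The groups did not overlap. FLNA rose with TGFb by 0.51 ± 0.04 on the log2 scale (edgeR adjusted p = 2.7e-07), and STINGX with TGFb was above control by 0.37 ± 0.04 (adjusted p = 5.0e-06). The fall against TGFb was small, -0.14 ± 0.04 (adjusted p = 0.0083), and with library size alone it was -0.005 (adjusted p = 0.94).

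ACTN1 (ENSG00000072110, chr14:68874128-68979440, minus strand) encodes alpha-actinin-1, which holds actin bundles together in stress fibres and at adhesions. Its control libraries had 964, 972, 927 and 973 CPM, those with TGFb 1426, 1372, 1482 and 1456 CPM, and those with STINGX and TGFb 1108, 1148, 1103 and 1116 CPM. The 3 groups were apart, with STINGX and TGFb in between. The rise with TGFb was 0.58 ± 0.03 on the log2 scale (edgeR adjusted p = 2.5e-08), the fall with STINGX -0.36 ± 0.03 (adjusted p = 2.4e-06) and the remaining excess over control 0.22 ± 0.03 (adjusted p = 0.00013). These 3 calls, too, held in the 12 other settings and with any 1 library left out.

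PALLD (ENSG00000129116, chr4:168497052-168928457, plus strand) encodes palladin, a scaffold of stress fibres and dense bodies that binds alpha-actinin. It had 83.8, 35.9, 64.2 and 76.3 CPM in control, 62.3, 63.4, 63.4 and 64.1 CPM with TGFb and 71.6, 46.4, 73.5 and 78.1 CPM with STINGX and TGFb. The TGFb libraries lay within 2 CPM of each other, while replicate 2 of both other groups was low. No comparison passed: the log2 changes were -0.04 ± 0.23 with TGFb (95% interval -0.55 to 0.48), 0.09 ± 0.23 for STINGX with TGFb against TGFb (-0.42 to 0.60) and 0.05 ± 0.23 against control (-0.46 to 0.56). PALLD overlaps DDX60L and CBR4 on the opposite strand, which had mean counts of 1096 and 674, and whether strand was used in counting is not given in the sources used here.

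SYNPO2 (ENSG00000172403, chr4:118850688-119061247, plus strand) encodes synaptopodin-2, or myopodin, an actin-bundling protein of muscle that partners with alpha-actinin and filamin. It was the gene of lowest level, at 4.41, 7.48, 6.51 and 5.51 CPM in control, 1.17, 2.73, 1.36 and 0.884 CPM with TGFb and 1.12, 2.64, 2.97 and 0.947 CPM with STINGX and TGFb. All 8 treated libraries were below the 4 controls. The log2 change was -1.95 ± 0.37 with TGFb (edgeR adjusted p = 0.0019) and -1.65 ± 0.35 for STINGX with TGFb against control (adjusted p = 0.0026), and 0.29 ± 0.44 between the treated groups (95% interval -0.66 to 1.2). In the deposited transcript table, however, 64.1%, 9.98%, 82.4% and 61.3% of the SYNPO2 counts of control replicates 1 to 4 belonged to a single-exon transcript at chr4:119042024-119043937, which GENCODE release 29 lists as a separate gene, AC096745.2. That transcript had no count in 6 of the 8 treated libraries. Without it the control values were 1.58, 6.74, 1.14 and 2.13 CPM, the ranges of control and TGFb overlapped, and the changes were -1.65 with TGFb (adjusted p = 0.11) and -0.98 for STINGX with TGFb against control (adjusted p = 0.24), an alternative chosen after seeing the data.

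ZYX (ENSG00000159840, chr7:143381295-143391111, plus strand) encodes zyxin, a LIM protein that brings VASP and its actin-polymerising activity to strained stress fibres. It stood at 375, 378, 346 and 352 CPM in control, 409, 404, 426 and 414 CPM with TGFb and 393, 399, 394 and 394 CPM with STINGX and TGFb. The 3 groups were apart but close. ZYX rose with TGFb by 0.19 ± 0.04 on the log2 scale (edgeR adjusted p = 0.0016), and STINGX with TGFb was above control by 0.12 ± 0.04 (adjusted p = 0.017). Between the treated groups the difference was -0.07 ± 0.04 (95% interval -0.14 to 0.01, adjusted p = 0.20), and 0.07 with library size alone (adjusted p = 0.087).

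FHL2 (ENSG00000115641, chr2:105357712-105438503, minus strand) encodes a LIM-only adaptor that moves between adhesions and the nucleus and is a known SRF target. Its levels were 95.8, 95.7, 87.5 and 79.7 CPM in control, 91.9, 94.5, 83.6 and 88.5 CPM with TGFb and 93.7, 91.8, 89.8 and 102 CPM with STINGX and TGFb. All groups overlapped. The log2 change with TGFb was 0.00 ± 0.07 (95% interval -0.14 to 0.14), and that of STINGX with TGFb was 0.07 ± 0.07 against TGFb (-0.07 to 0.22) and 0.07 ± 0.07 against control (-0.07 to 0.22). With library size alone the difference between the treated groups was 0.21 (edgeR adjusted p = 0.015). Of the 3 genes with a CArG box before a RefSeq start, FLNA and ACTN1 rose with TGFb and FHL2 did not pass the test.

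**Figure D3:**
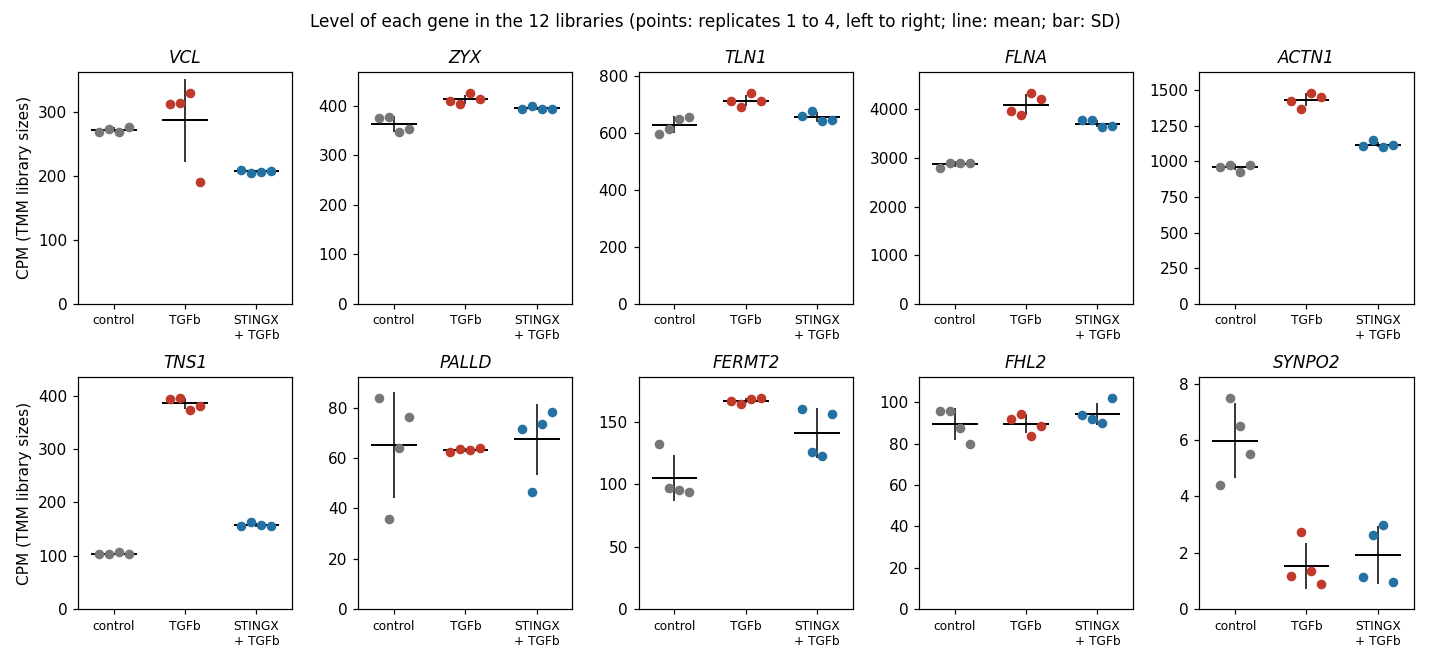
CPM with TMM library sizes of each gene in the 12 libraries (linear axes from 0); points are replicates 1 to 4 of a group from left to right, lines the mean and bars the SD (n = 4). TNS1, FLNA and ACTN1 form 3 separate groups, while single libraries stand apart for VCL (TGFb replicate 4 at 191) and FERMT2 (control replicate 1 at 133). PALLD is lowest in control replicate 2, at 35.9.

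The deposited transcript counts were examined to see which isoforms carry these levels. VCL is the textbook case, because the muscle isoform metavinculin, a longer protein, differs from vinculin by the exon below. This exon is exon 19 of the 22 in VCL-201 and is absent from the 21 exons of VCL-202. It is coding over all of its 204 bases (chr10:74111909-74112112, plus strand, from the GENCODE release 29 transcript on GRCh38).
Metavinculin exon: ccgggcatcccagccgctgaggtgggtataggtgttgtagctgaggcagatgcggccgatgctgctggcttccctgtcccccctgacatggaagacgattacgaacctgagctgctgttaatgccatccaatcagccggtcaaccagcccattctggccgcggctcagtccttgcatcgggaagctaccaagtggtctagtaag
VCL-202, without this exon, held 24.4%, 99.8%, 23.6% and 26.7% of the VCL counts in control replicates 1 to 4. With TGFb its share was 16.9%, 99.7%, 99.8% and 8.01%, and with STINGX and TGFb 0.0523%, 99.1%, 99.3% and 99.5%. In the 6 libraries where VCL-202 was low, VCL-201, with the exon, held 72.6% to 92.0% of the counts. The 2 transcripts also have different ends, chr10:74120160 for VCL-201 and chr10:74121363 for VCL-202. They are 5490 and 6489 bases long, so their shares do not measure the exon alone. The share swung by up to 99.5 percentage points between libraries of a group, and the deposited values give no stable ratio of vinculin to metavinculin. TGFb replicate 4, where the VCL level was lowest, was also the TGFb library with the lowest share of VCL-202; whether the 2 are linked was not tested.

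Swings of this kind were frequent. For each gene the leading transcript is the one with the highest mean count, and its share spanned more than 50 points within some group for 6 of the 10 genes: VCL, TNS1 (TNS1-222, 96.2 points), SYNPO2 (its single-exon transcript, 88.8), FLNA (FLNA-203, 68.7), ACTN1 (ACTN1-205, 64.4) and ZYX (ZYX-202, 64.3). In TLN1, TLN1-201 held at least 98.2% of the counts in every library. TNS1-222 held 93.0% or more in every treated library, but 10.5%, 96.3%, 0.113% and 96.0% in control replicates 1 to 4. ZYX-203 took 85.2% in control replicate 3 and in TGFb replicate 2 and at most 1.57% in the other libraries.

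For PALLD the share of the leading transcript was lowest in the TGFb libraries. PALLD-209 held 76.5%, 62.8%, 74.4% and 77.9% of the PALLD counts in control, 44.3%, 34.6%, 33.3% and 39.2% with TGFb, and 80.7%, 45.5%, 89.7% and 89.6% with STINGX and TGFb. All TGFb libraries were below all others, though STINGX with TGFb replicate 2 at 45.5% lay close to TGFb replicate 1 at 44.3%. PALLD-215 made up most of the difference, with 47.1%, 56.4%, 55.8% and 46.4% in the TGFb libraries and no more than 29% in control. With STINGX and TGFb it held 14.3%, 43.0%, 0.177% and 4.83%. In edgeR's quasi-likelihood test of transcript counts PALLD-209 did not pass with TGFb (adjusted p = 0.21) or with STINGX against TGFb (0.15). PALLD-215 did not pass either (adjusted p = 0.54 and 0.59). In an exact permutation test (two-sided, 4 against 4) PALLD-209 had p = 0.0286 against control and for STINGX with TGFb against TGFb, the smallest p this design allows, and an adjusted p of 0.286 over the 30 such tests. FLNA-203 had the same exact p with TGFb, at a mean of 70.2% (67.1% to 76.5%) against 33.1% in control. No control library was near that mean, since replicates 1 to 4 had 5.63%, 62.3%, 5.43% and 58.9%. None of the 30 tests passed after adjustment. Since 1 test at the smallest exact p cannot pass unless many others reach it too, this outcome does not decide whether shares shifted.

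**Figure D4:**
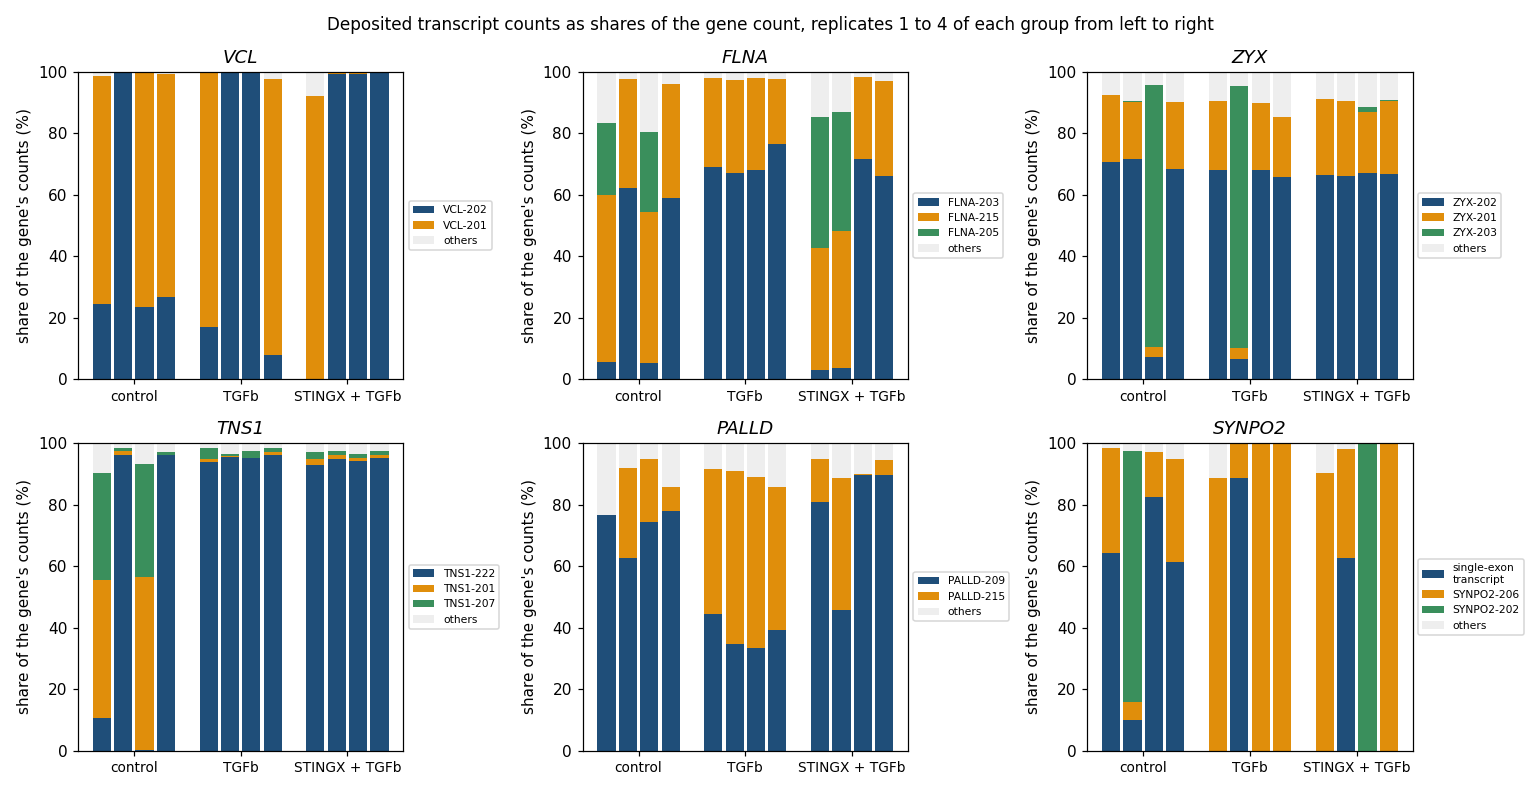
Share of each gene's deposited counts (%, stacked to 100) held by its main transcripts in the 12 libraries, for 6 genes; bars are replicates 1 to 4 of a group from left to right, and pale segments are all other transcripts. VCL, FLNA, ZYX, TNS1 and SYNPO2 change their leading transcript between libraries of the same group, while PALLD-209 is below 45% in the 4 TGFb libraries.

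Tested singly with edgeR's quasi-likelihood test over 79677 transcripts, few of the 92 transcripts of these genes passed. With TGFb FHL2-208 rose by 2.36 ± 0.50 on the log2 scale (adjusted p = 0.028) and PALLD-218 by 2.21 ± 0.38 (adjusted p = 0.011), where 2.33% of all transcripts were called. With STINGX before TGFb FHL2-208 fell by 3.06 ± 0.53 (adjusted p = 0.0078), PALLD-218 by 1.79 ± 0.37 (adjusted p = 0.032) and TNS1-217 by 1.06 ± 0.24 (adjusted p = 0.048), against 2.4% of all transcripts. None passed for STINGX with TGFb against control, where 3.45% of all transcripts did. FHL2-208, PALLD-218 and TNS1-217 each held under 10% of their gene's counts in every group, so they are minor parts of the gene levels.

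The paralogs show how the rest of each protein family behaved. Of 18 paralogs 15 were tested, and 5 rose and 4 fell with TGFb, while 4 rose and 6 fell with STINGX against TGFb. Over all genes tested 13.2% were higher and 12.8% lower with TGFb, and 13.7% higher and 13.8% lower with STINGX against TGFb. No paralog that passed changed direction with library size alone or with size factor scaling. FERMT1 (kindlin-1) rose with TGFb beside FERMT2, by 1.52 ± 0.09 on the log2 scale (edgeR adjusted p = 9.4e-08). FLNC (filamin C), a relative of FLNA, gave a log2 change of 0.02 ± 0.04 with TGFb. ACTN4 (alpha-actinin-4) rose by 0.18 ± 0.03 with TGFb and fell by 0.47 ± 0.03 with STINGX (adjusted p = 1.6e-07), to below control by 0.29 ± 0.03 on the log2 scale.

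Among the tensins, TNS1 rose with TGFb as given above, TNS2 fell by 0.60 ± 0.10 on the log2 scale (edgeR adjusted p = 0.00046) and TNS3 gave a log2 change of -0.05 ± 0.04. TNS3 then fell with STINGX by 0.94 ± 0.04 (adjusted p = 1.6e-09). In the FHL family FHL3 rose with TGFb by 1.2 ± 0.10 and fell with STINGX by 0.83 ± 0.10, and FHL1 fell with TGFb by 0.57 ± 0.11. TRIP6, a relative of zyxin, moved the other way from ZYX with TGFb, falling by 0.49 ± 0.04 (adjusted p = 2.3e-06). MYPN, the myopalladin relative of PALLD, fell with TGFb by 1.81 ± 0.20 from a low level of 7.24 CPM.

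Other genes of the plaque and its control were grouped by role. The share of all genes tested that was called was 26.0% with TGFb and 27.5% with STINGX against TGFb. Of 26 tested linkers between integrins and actin 11 rose and 5 fell with TGFb, and 4 rose and 8 fell with STINGX against TGFb. The scaffold NEDD9 rose by 1.96 ± 0.06 on the log2 scale and fell with STINGX by 1.28 ± 0.06, and the kinase PTK2B fell with TGFb by 1.0 ± 0.13. Of 14 tested PDZ-LIM proteins and actin bundlers 7 rose and 1 fell with TGFb, and 2 rose and 5 fell with STINGX. The bundler LCP1 (L-plastin) rose by 1.97 ± 0.07 with TGFb and by a further 1.01 ± 0.06 with STINGX. Among 12 zyxin and VASP partners 3 rose and 2 fell with TGFb, AJUBA by 0.70 ± 0.07, and 1 rose and 1 fell with STINGX.

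Of 11 regulators of SRF and MRTF 5 rose and 1 fell with TGFb and none rose and 4 fell with STINGX. MYOCD, the SRF cofactor of smooth muscle, rose by 1.69 ± 0.08 on the log2 scale with TGFb and gave -0.04 ± 0.08 with STINGX against TGFb. Of all 78 tested companion genes, paralogs included, 31 rose and 13 fell with TGFb. Their median log2 change was 0.14, against -0.004 over all genes. With STINGX against TGFb 11 rose and 24 fell (median -0.16, against 0.006 over all genes). Of all genes tested 26.0% were called with TGFb and 27.5% with STINGX against TGFb. With library size alone the split with STINGX against TGFb was 17 higher and 15 lower, where 72.6% of all called genes were higher. A further setting, chosen after seeing the data, left out control replicates 1 and 2 and TGFb replicate 4. TGFb replicate 4 and control replicate 1 stood apart for VCL and FERMT2, and control replicate 2 was the lowest PALLD library. Of the companion genes 27 rose and 9 fell with TGFb, and 9 rose and 23 fell with STINGX against TGFb. Among the 10 genes themselves 7 were higher and 1 lower with TGFb, and 0 higher and 5 lower with STINGX. Over all 22670 genes tested 2194 were higher and 1980 lower with TGFb, and 2716 higher and 2860 lower with STINGX. The libraries were picked by values of these genes, so the counts among the 10 are no separate check.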

How the data were processed

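LX2 cells were measured as 12 polyadenylated RNA libraries (TruSeq stranded mRNA kit, paired reads, per the labels' protocols), in 3 groups of 4. The submitters' processing notes name cutadapt, HISAT2, StringTie and edgeR, without versions or roles, and GRCh38. Neither the annotation release nor the use of strand is given in the sources used here. Estimated counts were deposited by the authors per gene and per transcript (whole numbers, transcript counts summing to the gene count) and FPKM values, in which a count of 0 is listed at 0.0001. 

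Gene and transcript estimated counts were tested with edgeR 4.0.16 (R 4.3.3): filterByExpr (minimum count 10, minimum total 15), TMM scaling, robust quasi-likelihood F test on all 12 libraries (9 residual degrees of freedom), Benjamini-Hochberg over all features, adjusted p under 0.05. The fit was checked on simulated counts, for genes with less spread than in these libraries (common dispersion 0.078). That check does not cover the larger spread of the data. CPM use TMM library sizes, and FPKM serve for levels between genes. Depth made 1 count worth 0.0141 to 0.0185 CPM. Between replicates of a group, chi-square over degrees of freedom was 42.1 to 89.3, beyond counting noise. Transcript shares were tested by exact permutation (scipy 1.17.1).

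The 10 genes, the lists of companion genes and the markers were chosen with earlier results of these data known. All 10 are named, and of the companion genes the tested paralogs and, per comparison, the 4 largest rises and falls among called genes of at least 2 CPM. Alternatives were other scalings (size factors, library size), filters, DESeq2 1.42.0, limma 3.58.1 (voom, and log2(FPKM + 1 or 0.1)), only the groups compared, a replicate block, and each library left out. The setting without control replicates 1 and 2 and TGFb replicate 4 was added after seeing the data. Gene positions are those of the deposited table, transcript and exon positions those of GENCODE release 29, and promoter windows those of RefSeq, all on GRCh38.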

Additional observations from a re-analysis of the deposited data

Results flagged for a closer look

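In 4 of the 30 sets of 4 libraries (10 genes in 3 groups) a single library stood apart from the other 3 by more than Dixon's 95% critical value for the gap over the range. Chance alone gives about 1 in 20 such sets. VCL was at 191 CPM in TGFb replicate 4, against 312 to 329 CPM in the other TGFb libraries. FERMT2 was at 133 CPM in control replicate 1, against 94.2 to 97.2 CPM in the other controls. The remaining pair were small in size: FLNA was at 2793 CPM in control replicate 1, against 2899 to 2903 CPM, and TNS1 was at 107 CPM in control replicate 3, against 102 to 103 CPM.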

How the results depend on the processing

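Of 723 values recomputed for single genes, 647 kept direction and side of the threshold, 42 lost the call, 10 gained it and 24 changed sign. The number of the 10 genes called was 6 to 8 in the other settings with TGFb (7) and 6 to 7 for STINGX with TGFb against control (7). For STINGX with TGFb against TGFb (5) it was 3 with library size alone, with no filter on low counts and in each of the 3 fits on log2 FPKM. With 1 library left out these counts ran from 7 to 8, from 6 to 7 and from 3 to 6, the 3 coming without TGFb replicate 1 or TGFb replicate 3. Changes of sign were all in values that did not pass, except TLN1. For STINGX with TGFb against TGFb, TLN1 became 0.018 with library size alone and 0.016 in each fit on log2 FPKM, and ZYX became 0.075 and 0.072. With TGFb, VCL became -0.017 on log2(FPKM + 1), with or without filter, and -0.019 on log2(FPKM + 0.1); PALLD became 0.030 with limma-voom and ranged from -0.24 to 0.11 with 1 library left out; FHL2 became 0.0048 with limma-voom, ranged from -0.054 to 0.032 with 1 library left out, and was 0.10 without control replicates 1 and 2 and TGFb replicate 4. For STINGX with TGFb against control, PALLD ranged from -0.15 to 0.20 with 1 library left out and was -0.063 without those 3. The causes were not tested beyond the construction of each setting. Called transcripts of the 10 genes with TGFb were 5 (4 higher, 1 lower) with a filter of 1 CPM, and 2 (1 higher, 1 lower) in place of 3 for STINGX with TGFb against TGFb. Same-numbered libraries did not deviate together over all genes tested (correlations from -0.038 to 0.045, against -0.041 to 0.042 for different numbers). A correlation over all genes cannot show a link by replicate number that is limited to few genes. With a replicate block 7, 4 and 6 of the 10 genes were called in the 3 comparisons, called transcripts were 1, 1 and 1 in place of 2, 3 and 0, and PALLD with TGFb was 0.028. Leaving out a library was not run for transcript shares, since 3 against 4 allows no exact p below 0.0571. The median of all genes and the directions of small changes depend on the scaling, which depth cannot settle.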

Other observations

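The spread between replicates differed by group for the same gene. For PALLD the coefficient of variation of CPM was 1.19% with TGFb, against 32.4% in control and 21.1% with STINGX and TGFb, and for FERMT2 it was 1.22%, 17.6% and 14.2% in the same order. VCL showed the reverse, with 22.5% with TGFb, 1.44% in control and 0.958% with STINGX and TGFb. FHL2, of a similar level to PALLD and FERMT2, had 8.57% in control, 5.22% with TGFb and 5.67% with STINGX and TGFb, and TNS1 had between 2.12% and 2.86%. These spreads were not tested against each other.

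In control replicates 1 and 3 the leading transcripts of FLNA, TNS1 and ACTN1 held a smaller share than in control replicates 2 and 4. FLNA-203 held 5.63% and 5.43% of the FLNA counts in replicates 1 and 3, against 62.3% and 58.9% in replicates 2 and 4, while FLNA-215 held 54.2%, 35.3%, 48.9% and 37.2% in replicates 1 to 4. TNS1-222 held 10.5% and 0.113% of the TNS1 counts, against 96.3% and 96.0%. ACTN1-205 held 3.75% and 0.245% of the ACTN1 counts, against 42.5% and 43.6%. The gene levels of TNS1 in those 4 libraries lay within 102 to 107 CPM.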
